A study of Homo sapiens with 8 samples.

Results

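The 10 genes described here belong to the NF-kB transcription factor pathway or are CXC chemokine genes that it controls. They were taken by symbol from a table of 23459 genes and comprise 3 NF-kB subunits (NFKB1, NFKB2 and RELB), 3 feedback genes (NFKBIA, TNFAIP3 and BIRC3) and 4 chemokines (CXCL1, CXCL2, CXCL3 and CXCL8). All 10 were present in the table, and 9 had enough counts to be tested. RNA was measured in Hct116 cells, an established human colorectal carcinoma line, in 4 libraries per treatment, taken 16 h after addition of lenalidomide (30 μM) or of DMSO, its solvent. No genetic change was introduced in either group, and according to the study's methods the medium was exchanged for one with the other isotope label of arginine and lysine when the compound was added, from light to heavy in some replicates of each treatment and in the reverse direction in the others. The labels name DMEM with serum and do not say which libraries had which direction, so that its part in the values was not tested. Lenalidomide is an immunomodulatory drug (IMiD) that redirects the CRL4-CRBN ubiquitin ligase to other substrates. The RNA libraries were made to learn whether the drug altered transcript levels in the cells used for protein turnover measurements.

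NF-kB proteins act as dimers that are held in the cytoplasm by IkB inhibitors. Cytokines such as TNF and IL-1 activate IkB kinases, the inhibitor is degraded and the dimer enters the nucleus, where it binds kB sites in promoters. Among its targets are its own inhibitors, which end the signal, and chemokines that attract neutrophils through CXCR1 and CXCR2. In immune cells IMiDs are known to alter cytokine output, and they promote the degradation of the lymphoid transcription factors IKZF1 and IKZF3. In the Hct116 libraries IKZF1 had between 0 and 3 counts and IKZF3 between 4 and 13.

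The library totals ran from 28218471 to 37473413 counts, and the 4 smallest were the lenalidomide libraries. DMSO replicate 3 stood apart from the other DMSO libraries, with a chi-square over degrees of freedom of 13.5 to 21.9 against them, compared with 5.55 to 9.05 among those 3. The highest value within a treatment was 24.1, between lenalidomide replicates 2 and 4. The epithelial markers EPCAM, CDH1, KRT8, KRT18 and KRT19 were all well above the test's count limit, with a summed level of 2287 to 2587 CPM (counts scaled to library size with TMM factors) with DMSO and 2211 to 2544 CPM with lenalidomide. None of the 6 immune markers (PTPRC, CD3E, MS4A1, CD14, IKZF1 and IKZF3) had enough counts to be tested, and their summed level was 0.205 to 0.422 CPM with DMSO and 0.335 to 1.04 CPM with lenalidomide. Of 4 fibroblast markers COL1A1 was testable, and of 3 endothelial markers VWF. In bulk RNA a change in the share of cells that express a gene cannot be told apart from a change in RNA per cell.

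Most promoters of the set held a kB match. Sequences of 250 bases before to 50 bases after the start were found for 9 of the 10 genes in RefSeq (GRCh38.p14), with 12 promoters in all, and were searched on both strands for the 10-base kB consensus and for GGAATTTCC, a 9-base core that overlaps it. The kB consensus was found in at least 1 promoter of 8 genes. Counted per promoter rather than per gene, 11.3% of all 35116 promoters of this length held it. The 9-base core was found for 6 genes, among them CXCL8, against 0.461% of all promoters. The genes were chosen as known members or targets of the NF-kB pathway, so the comparison with all promoters is descriptive. CXCL1, CXCL2 and CXCL3 hold the match within nearly the same letters and are not separate cases. The matches describe letters in these windows and do not show that NF-kB bound there.

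The 4 chemokine promoters are shown first because they share the core. Each line holds 60 bases upstream of the start, 5′ to 3′ on the strand of the gene, with the match in capitals. They lie on chromosome 4 of GRCh38.p14 at chr4:73869290-73869349 (CXCL1, plus strand), chr4:74099238-74099297 (CXCL2, minus strand), chr4:74038733-74038792 (CXCL3, minus strand) and chr4:73740452-73740511 (CXCL8, plus strand).
CXCL1: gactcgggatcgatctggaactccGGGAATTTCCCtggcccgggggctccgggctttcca
CXCL2: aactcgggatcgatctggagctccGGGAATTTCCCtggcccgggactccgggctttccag
CXCL3: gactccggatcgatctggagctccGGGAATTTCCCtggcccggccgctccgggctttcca
CXCL8: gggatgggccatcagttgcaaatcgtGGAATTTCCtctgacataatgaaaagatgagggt

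In CXCL1 and CXCL3 the match on the gene's strand ran from -79 to -70 relative to the start, and in CXCL2 from -78 to -69. CXCL8 held the 9-base core from -91 to -83 and no full consensus match. The windows of NFKB1 (chr4:102501285-102501344, plus strand), NFKBIA (chr14:35404796-35404855, minus strand), TNFAIP3 (chr6:137867179-137867238, plus strand), BIRC3 (chr11:102317324-102317383, plus strand) and 1 promoter of NFKB2 (chr10:102395645-102395704, plus strand) are shown because these genes feed back on the pathway or encode a subunit. In NFKBIA, TNFAIP3 and BIRC3 the match is on the opposite strand, so that it reads here as its reverse complement. TNFAIP3 and BIRC3 each held 2 such matches, and the one of BIRC3 from -199 to -190 lies outside the window shown. NFKB2 held the match shown from -21 to -12 and another from -176 to -167. A further promoter of NFKB2 held matches between -107 and -69, and its remaining promoter held none. Another promoter of NFKB1 (chr4:102501684-102501983, plus strand) also held none.
NFKB1: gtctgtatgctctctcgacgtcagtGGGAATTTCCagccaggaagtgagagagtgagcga
NFKBIA: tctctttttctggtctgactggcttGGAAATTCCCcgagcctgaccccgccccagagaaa
TNFAIP3: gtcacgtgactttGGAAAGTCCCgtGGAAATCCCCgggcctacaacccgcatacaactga
BIRC3: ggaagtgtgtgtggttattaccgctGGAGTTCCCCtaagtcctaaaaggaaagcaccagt
NFKB2: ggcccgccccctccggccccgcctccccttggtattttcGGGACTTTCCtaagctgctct

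**Figure D1:**
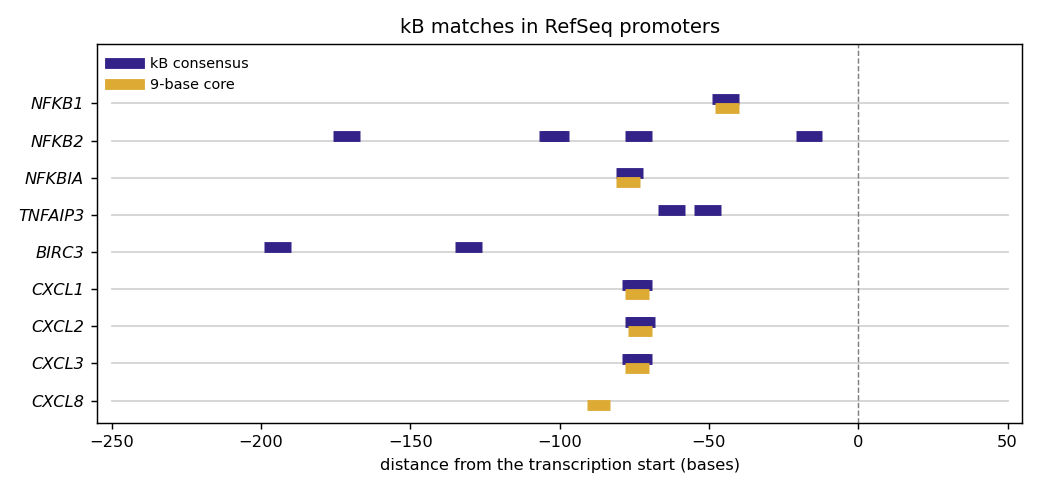
Positions of kB matches in RefSeq promoters of 9 genes, from 250 bases before to 50 after the transcription start (x axis, bases; 1 gene per line, all promoters of a gene drawn together). Dark bars are the 10-base consensus and yellow bars the 9-base core, which lies between -91 and -40 in the 6 genes that hold it.

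The NF-kB subunits were expressed and did not pass the test. NFKB1 encodes p105, which is processed to the p50 subunit (Entrez gene 4790; chromosome 4 of GRCh37, 103422487 to 103538459, plus strand). Its level was 90.8, 83.6, 92.3 and 89.1 CPM in DMSO replicates 1 to 4 and 80.7, 81.2, 91.3 and 83.8 CPM in lenalidomide replicates 1 to 4. The treatments overlapped, since lenalidomide replicate 3 was above all but 1 of the DMSO libraries. The log2 fold change of lenalidomide against DMSO was -0.079 (standard error 0.056, 95% confidence interval -0.20 to 0.042, adjusted p = 0.999, edgeR quasi-likelihood, Benjamini-Hochberg over all genes tested). That interval spans changes from -12.9% to 2.95%.

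NFKB2 encodes p100, the precursor of the p52 subunit of the non-canonical pathway (Entrez gene 4791; chromosome 10, 104153867 to 104162281, plus strand). Its level was 45.1, 46.2, 58.2 and 46.5 CPM with DMSO and 51.6, 52.8, 49.9 and 50.4 CPM with lenalidomide. DMSO replicate 3 was above every lenalidomide library, and the other 3 DMSO libraries were below every lenalidomide library. The log2 fold change was 0.064 (standard error 0.075, 95% confidence interval -0.097 to 0.22, adjusted p = 0.999). Without DMSO replicate 3 the edgeR estimate was 0.15, with an adjusted p of 0.819 (0.00899 before adjustment). In that fit 844 of 13990 genes were under 0.05 before adjustment, compared with 582 of 13925 when all libraries were used.

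RELB, the partner of p52 (Entrez gene 5971; chromosome 19, 45504719 to 45541450, plus strand), was far lower. It had 3.91, 3.06, 4.15 and 3.25 CPM with DMSO and 3.08, 3.68, 3.16 and 4.19 CPM with lenalidomide, so that high and low libraries occurred in both groups. Its log2 fold change was -0.026 (95% confidence interval -0.32 to 0.27), and the sign changed with the libraries used.

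The 3 feedback genes all had fitted values below 0, and BIRC3 alone was under 0.05 before adjustment. BIRC3 encodes cIAP2, a ubiquitin ligase of TNF receptor complexes (Entrez gene 330; chromosome 11, 102188215 to 102210134, plus strand). It had 8.0, 6.87, 6.40 and 6.42 CPM in DMSO replicates 1 to 4 and 5.55, 6.24, 5.66 and 6.07 CPM in lenalidomide replicates 1 to 4. The treatments did not overlap, with lenalidomide lower throughout (exact two-sided permutation of log2 CPM, p = 0.0286, the smallest that 4 against 4 allow). Such a separation, with lenalidomide lower, was found for 1 of the 9 genes, and for 0.84% of all 13925 genes tested. The log2 fold change was -0.24 (standard error 0.098, 95% confidence interval -0.45 to -0.026), and in edgeR p was 0.0303 before and 0.999 after adjustment. Without DMSO replicate 1, which had the highest value, it was -0.16 with an unadjusted p of 0.114. Exons of BIRC3 overlap those of ENSG00000288528 on the opposite strand, and reads of both strands may have been counted.

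TNFAIP3 encodes A20, a ubiquitin-editing enzyme that ends TNF signalling (Entrez gene 7128; chromosome 6, 138188351 to 138204451, plus strand). Its level was 3.27, 2.70, 2.78 and 2.82 CPM with DMSO and 2.50, 2.41, 2.34 and 2.91 CPM with lenalidomide. Lenalidomide replicate 4 lay within the DMSO range, and the other 3 were below it. The log2 fold change was -0.19 (standard error 0.13, 95% confidence interval -0.46 to 0.078, adjusted p = 0.999). TNFAIP3 shares exonic sequence with WAKMAR2 on the opposite strand.

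NFKBIA encodes IkB-alpha, the inhibitor that is degraded on activation and made again by NF-kB (Entrez gene 4792; chromosome 14, 35870285 to 35873955, minus strand). It had 30.4, 28.7, 27.4 and 27.2 CPM with DMSO and 26.9, 25.5, 26.3 and 28.2 CPM with lenalidomide. As for TNFAIP3, lenalidomide replicate 4 was the library that reached into the DMSO range. The log2 fold change was -0.089 (standard error 0.060, 95% confidence interval -0.22 to 0.039, adjusted p = 0.999), which spans changes from -14.0% to 2.77%.

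The 4 chemokines were near the lower limit of detection in both treatments. Their genes lie within 358678 bases of chromosome 4, between 74606236 and 74964913 on GRCh37. In all 32 values, 4 genes in 8 libraries, between 2 and 24 reads were counted. CXCL8, or interleukin 8, the main neutrophil attractant (Entrez gene 3576), had 19, 21, 15 and 24 counts with DMSO and 15, 18, 23 and 17 with lenalidomide. These correspond to 0.540 ± 0.0850 CPM and 0.580 ± 0.0903 CPM (SD, n = 4 each), with a log2 fold change of 0.099 (95% confidence interval -0.41 to 0.61).

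CXCL1 (GRO-alpha; Entrez gene 2919) had 23, 22, 10 and 11 counts with DMSO and 10, 18, 12 and 14 with lenalidomide. The DMSO libraries fell into a higher pair, replicates 1 and 2, and a lower pair, and the lenalidomide values, in CPM, lay between the pairs. Its log2 fold change was -0.075 (95% confidence interval -0.78 to 0.63). CXCL3 (GRO-gamma; Entrez gene 2921) had 8, 17, 10 and 9 counts with DMSO and 11, 13, 2 and 14 with lenalidomide, a log2 fold change of 0.078 (95% confidence interval -0.90 to 1.05). CXCL2 (GRO-beta; Entrez gene 2920) was below the count limit of the test, with 13, 14, 3 and 7 counts with DMSO and 6, 5, 9 and 9 with lenalidomide. Its summed counts were 37 with DMSO and 29 with lenalidomide. Taken relative to the summed library totals of each treatment, the ratio of lenalidomide to DMSO was 0.908. The exact 95% interval from 0.539 to 1.52 covers counting error only.

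CXCL1, CXCL2 and CXCL3 are close paralogs. Of the 50-base windows in their GENCODE transcripts, 4.57%, 13.4% and 6.01% also occur in transcripts of another CXC chemokine, against 0% for CXCL8. Reads that lie wholly within such windows can map to more than 1 place, and may then be missing from the counts or assigned to a paralog. How many reads this concerns depends on the read length, which is not given. The 3 genes summed to 1 feature gave a log2 fold change of -0.039 (standard error 0.28). All 4 chemokines together had 1.69, 2.04, 1.11 and 1.35 CPM with DMSO and 1.36, 1.63, 1.40 and 1.87 CPM with lenalidomide, so that the DMSO libraries held both the highest and the lowest sum.

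**Figure D2:**
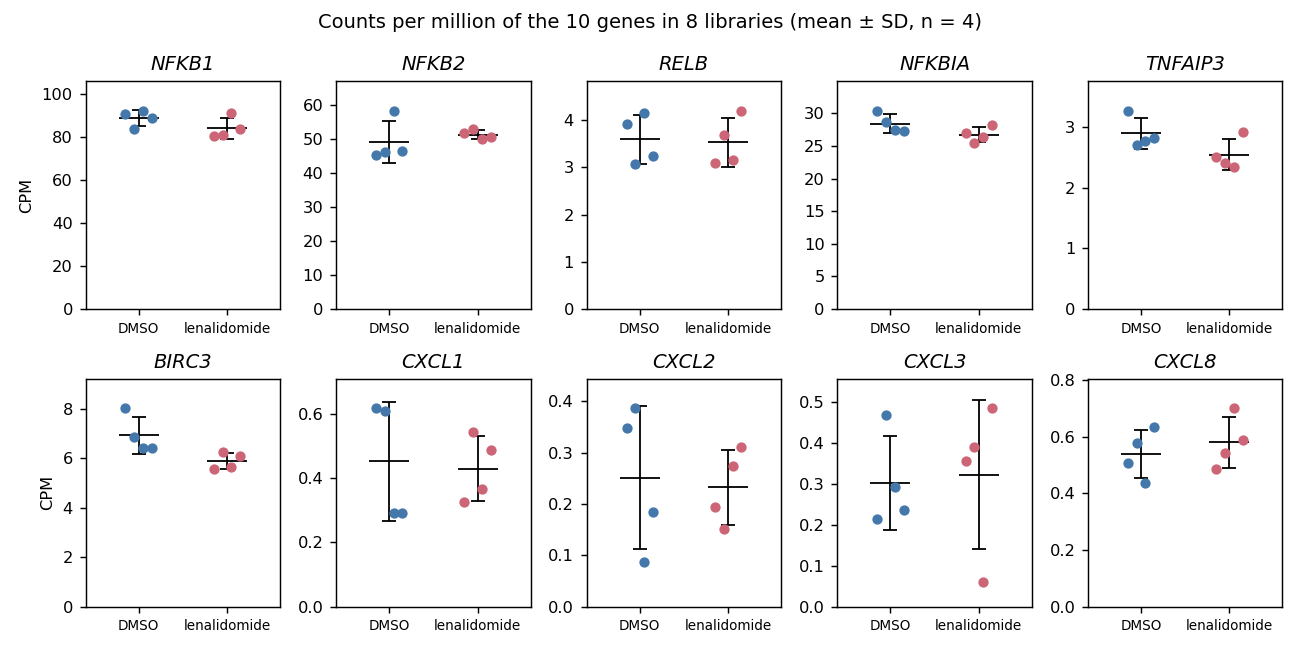
CPM (y axis, from 0) of each of the 10 genes in the 4 DMSO libraries (blue) and the 4 lenalidomide libraries (red), with mean and SD as black bars. BIRC3 is the gene whose treatments do not overlap, and NFKB2 has 1 DMSO library at 58.2 CPM.

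Of the 9 genes tested, 0 passed the threshold of 0.05 after adjustment in edgeR, and 1, BIRC3, was under 0.05 before adjustment. Over all 13925 genes these shares were 0.0144% and 4.18%. With DESeq2 and with edgeR's likelihood ratio test 0 of the 9 also passed the adjusted threshold. The fitted log2 fold change was below 0 for 6 of the 9 genes, beside 48.7% of all genes tested, and its median was -0.075, beside 0.0025 over all genes. Without DMSO replicate 3, which stood apart, 0 of the genes passed after adjustment in edgeR and BIRC3 and NFKB2 were under 0.05 before it. With all libraries 582 of all 13925 genes were under 0.05 before adjustment. Without DMSO replicate 3 that count was 844 of 13990 genes, and 1 gene passed after adjustment. In that fit BIRC3 was at -0.28, TNFAIP3 at -0.21, NFKBIA at -0.11, NFKB1 at -0.064, NFKB2 at 0.15, RELB at 0.045, CXCL1 at -0.23, CXCL3 at 0.060 and CXCL8 at 0.012, and CXCL2, which then had enough counts, at -0.40 (standard error 0.41). The subunits NFKB1 and NFKB2 and the inhibitor NFKBIA had the narrowest intervals, and those of the chemokines were the widest.

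**Figure D3:**
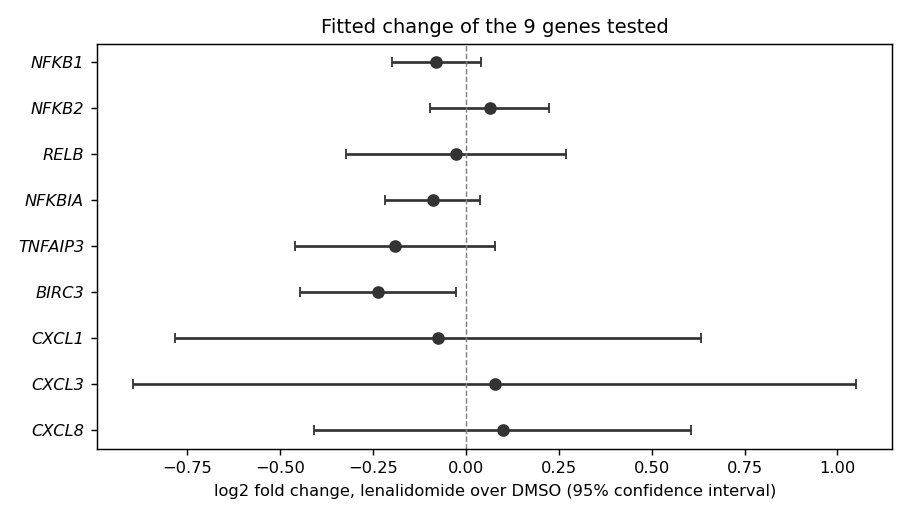
Fitted log2 fold change of lenalidomide over DMSO (x axis) for the 9 genes tested, with 95% confidence intervals as bars. The intervals of all but BIRC3 include 0, and that of CXCL3 runs from -0.90 to 1.05.

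Levels of different genes were compared as CPM per kilobase of exonic width. They spanned a 124-fold range with DMSO, from NFKBIA at 18.1 ± 0.931 to CXCL3 at 0.146 ± 0.0554 CPM per kilobase (SD, n = 4 each). NFKB1 followed at 16.9 ± 0.723 and NFKB2 at 12.6 ± 1.58, and these 3 lay at the 73.6, 72.1 and 65.9 percentiles of all genes tested. RELB was at 1.58 ± 0.228, BIRC3 at 1.0 ± 0.109 and TNFAIP3 at 0.592 ± 0.0519 CPM per kilobase. The chemokines CXCL1, CXCL8, CXCL2 and CXCL3 came last, at percentiles from 10.1 down to 3.89. Neighbours in this order overlapped between DMSO libraries for NFKBIA and NFKB1 and among the 4 chemokines, and the other neighbours did not overlap.

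**Figure D4:**
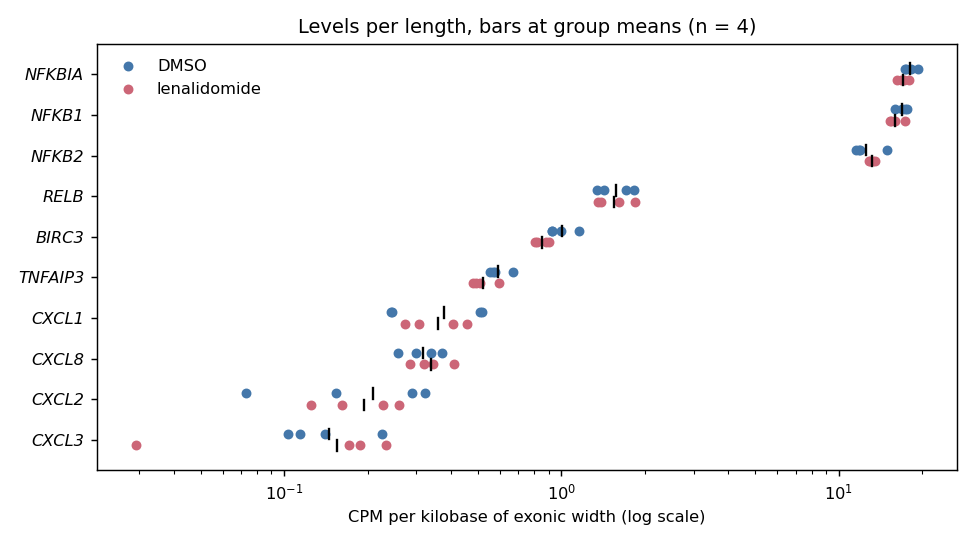
Level per length (x axis, CPM per kilobase of exonic width, log scale) of the 10 genes in each DMSO (blue) and lenalidomide (red) library, with bars at group means. NFKBIA, NFKB1 and NFKB2 lie above 11 and the 4 chemokines below 0.6.

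The genes around the set in the pathway were also examined, by lists drawn up by role. Among 7 further subunits and IkB proteins, all tested, 0 passed the adjusted threshold in either direction, with a median log2 fold change of -0.018. RELA, the p65 subunit, was the most expressed of them per length, and stood at 46.6 ± 1.95 CPM in DMSO libraries and at 46.5 ± 1.52 CPM in lenalidomide libraries (DMSO first from here on; SD, n = 4 each). NFKBID, a nuclear IkB protein, had 2.25 ± 0.112 and 2.84 ± 0.280 CPM, with an adjusted p of 0.999 in edgeR's quasi-likelihood test. All 4 of its lenalidomide values were above all 4 of DMSO, as for 1.24% of all genes tested. Of 25 IkB kinases and adaptors, 0 passed, with a median of -0.034. CHUK, the IKK-alpha kinase, had 161.6 ± 9.37 and 151.4 ± 8.71 CPM, and TAB2, an adaptor of the TAK1 kinase, 76.6 ± 6.31 and 84.9 ± 9.96 CPM.

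Of 16 receptors 13 were tested and 0 passed, with a median of -0.021. TNFRSF12A, the TWEAK receptor, had 88.3 ± 24.1 and 84.0 ± 16.2 CPM, and TNFRSF21, a death receptor, 67.4 ± 4.65 and 60.4 ± 2.52 CPM, without overlap and lower with lenalidomide, as for the 0.84% of genes given above (adjusted p = 0.999 in the same test by edgeR). Of 10 ligands 2 had enough counts, TNFSF12, which encodes TWEAK, and IL18, and 0 passed. TNF itself had 3 counts and IL1B 4 counts over all 8 libraries. Of 13 negative regulators 12 were tested and 0 passed, with a median of -0.0016. TAX1BP1, a partner of A20, had 194.1 ± 4.6 and 190.1 ± 11.9 CPM, and OTULIN, a linear ubiquitin hydrolase, 66.9 ± 3.44 and 69.8 ± 3.16 CPM.

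Among 30 other NF-kB target genes 21 were tested and 0 passed the adjusted threshold, with a median of 0.020 and values from -0.33 to 0.36. The smallest unadjusted p was that of IER3, an early response gene that acts on cell survival, with 267.1 ± 22.3 and 228.0 ± 10.3 CPM. Its log2 fold change was -0.23 (standard error 0.064, unadjusted p = 0.00325, adjusted p = 0.999 by the quasi-likelihood test of edgeR). The treatments did not overlap for 3 of the 21 genes. IER3 and CEBPD, a transcription factor gene, were lower with lenalidomide and TNFAIP2 was higher, which compares with 0.84% and 1.24% of all genes tested. CEBPD had 4.18 ± 0.257 and 3.34 ± 0.454 CPM (log2 fold change -0.33, standard error 0.12), and TNFAIP2 24.9 ± 0.944 and 27.6 ± 1.17 CPM (log2 fold change 0.15, standard error 0.058). BCL2L1, which encodes the survival protein BCL-XL, had 164.1 ± 2.12 and 159.2 ± 8.07 CPM. The cytokine and chemokine targets IL6, CCL2, CCL5, CCL20, CXCL10 and CSF2 had 12 counts or fewer over all libraries. Other cytokine targets of the list were tested, LIF with 5390, CSF1 with 618, IL32 with 342 and IL23A with 106 counts.

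Of 12 other CXC chemokines 1, CXCL16, was tested. CXCL16, a transmembrane chemokine, had 17.7 ± 0.521 and 15.8 ± 0.419 CPM. The treatments did not overlap, with lenalidomide lower, as for 0.84% of all genes tested. Its log2 fold change was -0.17 (standard error 0.061, unadjusted p = 0.0154, adjusted p = 0.999 with edgeR). An unadjusted p under 0.05 was found for 4.18% of all genes tested. CXCL5 and CXCL6, which use the same receptors as CXCL8, had 15 and 2 counts over all libraries. Of 8 chemokine receptors CXCR4 was tested, at 0.324 ± 0.0862 and 0.323 ± 0.186 CPM.

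**Figure D5:**
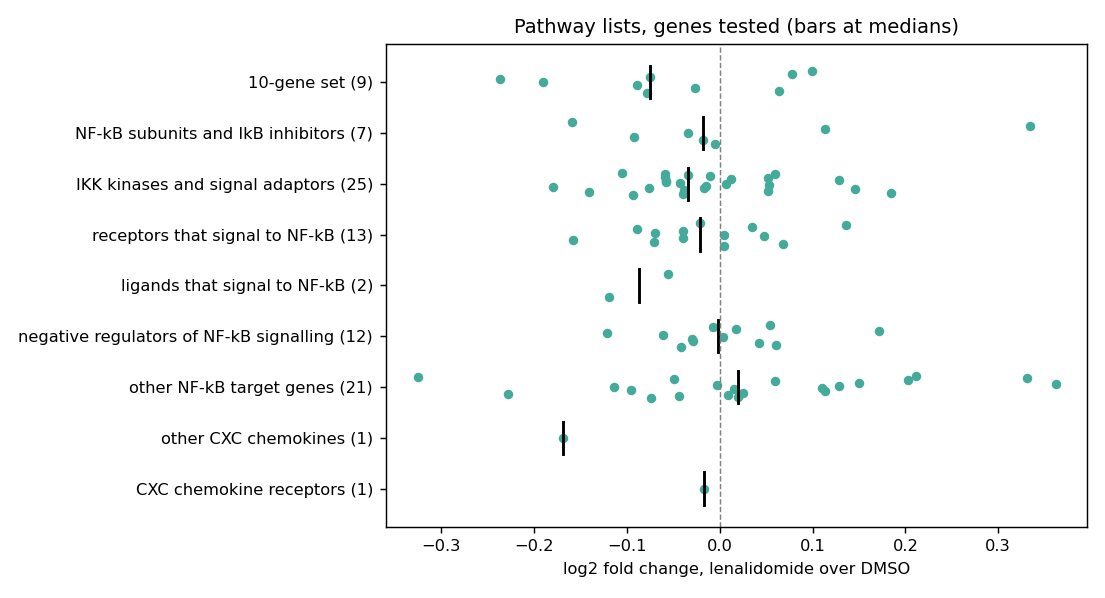
Fitted log2 fold change of lenalidomide over DMSO (x axis) for each tested gene of the 10-gene set and of 8 pathway lists, with the number tested in parentheses and a black bar at each median. Most values lie between -0.2 and 0.2, and 0 genes passed the adjusted threshold.

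Whether the genes varied together among libraries was examined over the 36 pairs of tested genes. NFKBIA and TNFAIP3 gave the highest correlation of log2 CPM over the 8 libraries (Pearson's r = 0.885, exact permutation p = 0.00454, adjusted p = 0.163; Spearman's rho = 0.810, exact permutation p = 0.0218, adjusted p = 0.777). Within treatments, r was 0.775 over the DMSO and 0.876 over the lenalidomide libraries, and without the 2 libraries farthest from the median of NFKBIA it was 0.711. BIRC3 gave r = 0.793 with TNFAIP3 (rho = 0.595) and r = 0.776 with NFKBIA (rho = 0.690), each with an adjusted permutation p of 0.303. With TNFAIP3, r was 0.868 over the DMSO and 0.326 over the lenalidomide libraries. It was 0.349 without the 2 libraries farthest from the median of TNFAIP3. Leaving out extreme libraries also narrows the range of values, so this drop alone does not show what the relation rests on. With treatment means removed, r of this pair was 0.620 (exact permutation p = 0.125, adjusted p = 0.781). With NFKBIA, r was 0.986 over the DMSO and -0.147 over the lenalidomide libraries, and without the 2 farthest libraries it was 0.751. NFKB1 and CXCL3 had a negative correlation (r = -0.689, adjusted permutation p = 0.303, rho = -0.619). Over the DMSO libraries r was -0.806 and over the lenalidomide libraries -0.899. Without the 2 libraries farthest from the median of NFKB1 it was -0.836. Those 2 do not include lenalidomide replicate 3, where CXCL3 had 2 counts and NFKB1 its highest lenalidomide value, 91.3 CPM. The weight of that library in these values was not tested. With treatment means removed, the smallest permutation p was that of BIRC3 and CXCL1 (r = 0.855, p = 0.00347, adjusted p = 0.125). Of the 36 pairs, 4 had an unadjusted permutation p under 0.05 and 0 passed after adjustment. As a description, the genes of at least 10 CPM whose level over the 8 libraries was most like the mean of CXCL1, CXCL3 and CXCL8 were ZNF226, SLC4A5, TTC12, PPDPF and GSTK1, with r from 0.906 to 0.964 among 9085 genes. With chemokine counts this low, that mean profile carries much counting error.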

How the data were processed

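RNA was sequenced from 8 libraries of Hct116 cells (ScriptSeq v2 total RNA kit). The authors aligned reads to hg19 with QuasR at default parameters with spliced alignment and deposited raw counts per gene of the UCSC known gene models, without normalization, beside each gene's exonic width in bases. The submitters' processing notes name bcl2fastq 2.17. The strand setting, QuasR version and read length are not given in the sources used here. The series' design text and the paper's figure legends call the 4 replicates biological. The methods, in contrast, call those of the mass spectrometry samples, from which the RNA came, technical. They give 2 per treatment in each direction of the label exchange. P-values thus measure the spread between these libraries, which may be technical.

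Genes were kept by filterByExpr (minimum count 10, minimum total 15), which left 13925 of 23459. TMM factors and edgeR 4.0.16's quasi-likelihood test (R 4.3.3, limma 3.58.1) compared lenalidomide with DMSO, with Benjamini-Hochberg adjustment over all genes tested and a threshold of 0.05. DESeq2 1.42.0 was an alternative. Rows without a symbol (70, with 0.0223% of the counts) have identifiers and were kept. Log2 CPM values used a prior count of 2. No library was a duplicate of another (chi-square over degrees of freedom 5.55 to 24.1 between libraries of 1 treatment). Positions come from GENCODE on GRCh37, the build of the alignment, and promoters from RefSeq on GRCh38.p14. The genes and lists were chosen with earlier results of these data known. Named list genes are, per list, those with the smallest unadjusted p and with the highest DMSO level per length. The genes most like the chemokine profile were the 5 with the highest r. Others were named after their values were seen.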

Additional observations from a re-analysis of the deposited data

Results flagged for a closer look

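Among 20 sets of 4 libraries, 10 genes in each treatment, a single value stood apart, and about 1 would by chance. It was NFKB2 in DMSO replicate 3, with 58.2 CPM, whereas the other DMSO libraries ranged from 45.1 to 46.5 CPM. This library also stood apart over all genes, with a chi-square over degrees of freedom of 13.5 to 21.9 against the other DMSO libraries, compared with 5.55 to 9.05 among those. The part of that difference in the NFKB2 value was not tested.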

How the results depend on the processing

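None of the 9 genes tested, and none of the 8 pathway lists, had a gene past an adjusted p of 0.05 under any alternative run (RLE scaling, DESeq2, likelihood ratio test, both count filters, thinning, replicate block, each library left out). Over all genes the count of 2 became 9 with DESeq2, 12 with the likelihood ratio test, 4 with all genes of at least 1 count, and 1 to 2 without each library in turn. With the replicate number as a block it was 6. Deviations of same-numbered libraries correlated at 0.028, -0.024, 0.031 and 0.27, so the numbers were not taken to pair them. Of 135 fold changes of the 9 genes under the alternatives 120 kept their direction and 15 changed sign. RELB was at 0.035 and CXCL1 at 0.027 with thinning to the smallest total. The sum of CXCL1, CXCL2 and CXCL3 as 1 feature was at -0.039. In the counts above that value stands for both CXCL1, as the same direction, and CXCL3, as a change of sign, though neither was fitted alone there. Leaving out each library in turn gave log2 fold changes from -0.12 to 0.045 for RELB, from -0.24 to 0.11 for CXCL1, from -0.17 to 0.43 for CXCL3 and from -0.0077 to 0.19 for CXCL8. For BIRC3 they ran from -0.28 to -0.16, with an unadjusted p under 0.05 in 5 of 8 fits, the exceptions being those without DMSO replicate 1 and without lenalidomide replicate 1 or 3. The causes were not tested. CXCL2 was fitted at -0.14 (standard error 0.48) with all genes of at least 1 count. The chemokine estimates rest on 24 reads or fewer per gene and library. The median percentile of level per length was 16.8 on both scales, and 0 pairs of genes passed with treatment means removed.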
